A study of Mus musculus with 8 samples.

Results

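The genes described here are 125 members of 10 families of enzymes and redox proteins, taken by gene symbol. The families are glutathione transferases, glutathione peroxidases, peroxiredoxins, the thioredoxin group, aldehyde dehydrogenases, alcohol dehydrogenases, aldo-keto reductases, cytochromes P450, UDP-glucuronosyltransferases and sulfotransferases. The 125 are all the genes, out of 9294 with 1 gene symbol on the array, whose symbol begins with one of the forms chosen for these families. Gpx2 is the exception, which the choice left out. Related genes whose symbols begin otherwise, such as Mgst2, are not counted. By their symbols, Adh6-ps1 and Cyp4f41-ps are pseudogenes, and they are counted in their families. The rule reads gene symbols and sets no threshold on a measured value, but it was drawn up with earlier results of these data known. Biotin-labelled total RNA of C57BL/6 mouse keratinocytes was hybridised to 8 oligonucleotide arrays, with 1 colour each. The 4 wildtype arrays and the 4 Nfkbiz KO arrays all came from cells transduced with the v-rasHa oncogene, a viral activated Hras, and harvested after 3 days in regular medium. Nfkbiz encodes IkBz, a nuclear protein that regulates genes controlled by NF-kB. Per the labels, the 4 samples of a genotype were biological replicates, and no keratinocyte without v-rasHa was among the samples, so all results compare genotypes within RAS-transduced cells.

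These families share the work of keeping a cell's redox state and of modifying foreign and endogenous small molecules. Cytochromes P450, aldehyde and alcohol dehydrogenases and aldo-keto reductases oxidise or reduce a substrate, and transferases then attach glutathione, glucuronic acid or sulfate to it. Glutathione peroxidases, peroxiredoxins and thioredoxins remove peroxides and reduce protein disulfides. In the epidermis, members also serve tissue functions: retinoic acid, which controls keratinocyte differentiation, is cleared by P450s of the Cyp26 family, a Cyp4f enzyme makes fatty acids for barrier ceramides, and Sult2b1 makes cholesterol sulfate.

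Signals are given on the log2 scale as the authors deposited them, so a difference of 1 is a doubling of signal. The 8 arrays had similar medians, from 4.49 to 4.57, and lower quartiles of 3.33 to 3.39. No detection calls were used, so a signal near or below these values could not be told from background. Of 8 keratinocyte marker genes measured, including Krt5, Krt1 and Krt10, none was below the array medians. Nfkbiz was not among the genes analysed here, so its level did not check the knockout labels.

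Few of these genes differed between knockout and wildtype cells, and the estimated difference of those that did was less than 1.5-fold. In limma, with Benjamini-Hochberg adjustment over all 9294 genes and a threshold of 0.05, 7 of the 125 members passed, 4 higher and 3 lower in the knockout. Over all genes tested, 827 passed, which is 8.90%, with 4.47% (415) higher and 4.43% (412) lower, or 482 higher and 314 lower with each array centred on its median, so the members' share of 5.60% lay below that of all genes. Among genes with a mean log2 signal of at least 5, the members' share was above that of all genes, 20.6% beside 16.0%. The members' median log2 fold change was -0.02, against -0.01 over all genes. The genes that rose were the glutathione transferases Gstm2 and Gstk1, the peroxidase Gpx8 and the thioredoxin-domain gene Txndc16. The genes that fell were the P450s Cyp26b1 and Cyp4f39 and the folate enzyme Aldh1l2. The 95% interval of the difference lay within 1.5-fold in either direction for 117 of the 118 members that did not pass. Gsta2 was the exception, and a miss of the threshold does not show that a gene was equal in both genotypes. Among the 7 that passed, the interval of Cyp26b1, from -0.71 to -0.30 on the log2 scale, reached beyond 1.5-fold. In simulated arrays with the spread of these ones, 200 of 9294 genes were changed. Recovered were 37.1% of genes changed by 1.2-fold, 66.3% of those changed by 1.3-fold and 92.2% of those changed by 1.5-fold. Small changes could thus be missed. Fewer genes were changed there than the 827 that passed here, so these shares need not hold for the real arrays.

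**Figure D1:**
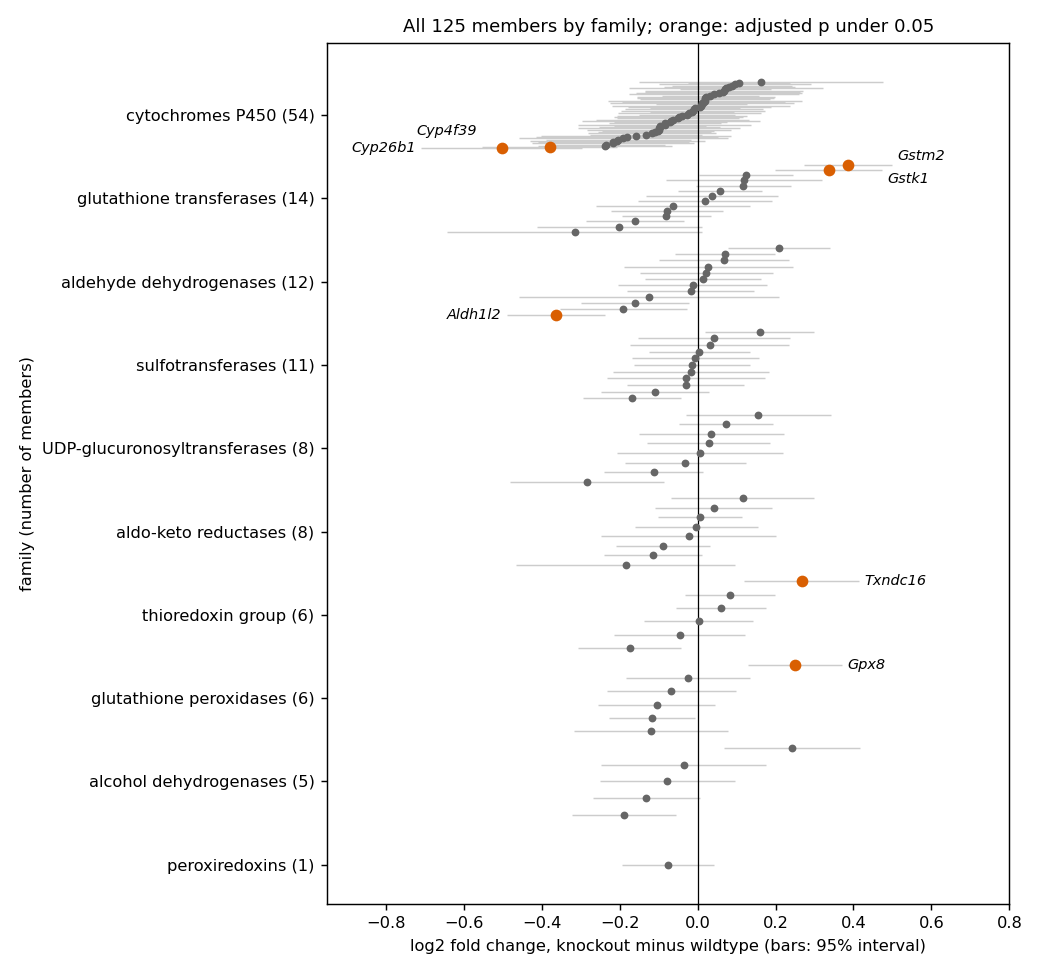
Log2 fold changes (knockout minus wildtype, horizontal axis) of all 125 members, grouped by family and sorted within it, with 95% intervals as bars and members with an adjusted p under 0.05 in orange. Most members lie close to 0, and the 7 orange ones range from -0.50 for Cyp26b1 to 0.38 for Gstm2.

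The signal of most members was low. Of the 125, 82 had a mean below all array medians and 42 a mean below all lower quartiles. All 7 members that passed were among the 34 with a mean log2 signal of at least 5, where they made up 20.6%, beside 16.0% (705 of 4414) for all genes at that level. Of the 91 members under 5, none passed in limma, and 2.50% of all 4880 genes under 5 did. Unadjusted limma p-values were under 0.05 for 24 of the 125 members, beside 1932 of all 9294 genes, and for 10 of these 91. Means below the array medians were found for 8 of 8 UDP-glucuronosyltransferases, 10 of 11 sulfotransferases, 4 of 5 alcohol dehydrogenases, 41 of 54 P450s, 5 of 8 aldo-keto reductases and 6 of 12 aldehyde dehydrogenases. The same held for 4 of 14 glutathione transferases, 2 of 6 glutathione peroxidases and 2 of 6 genes of the thioredoxin group, and not for Prdx3.

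**Figure D2:**
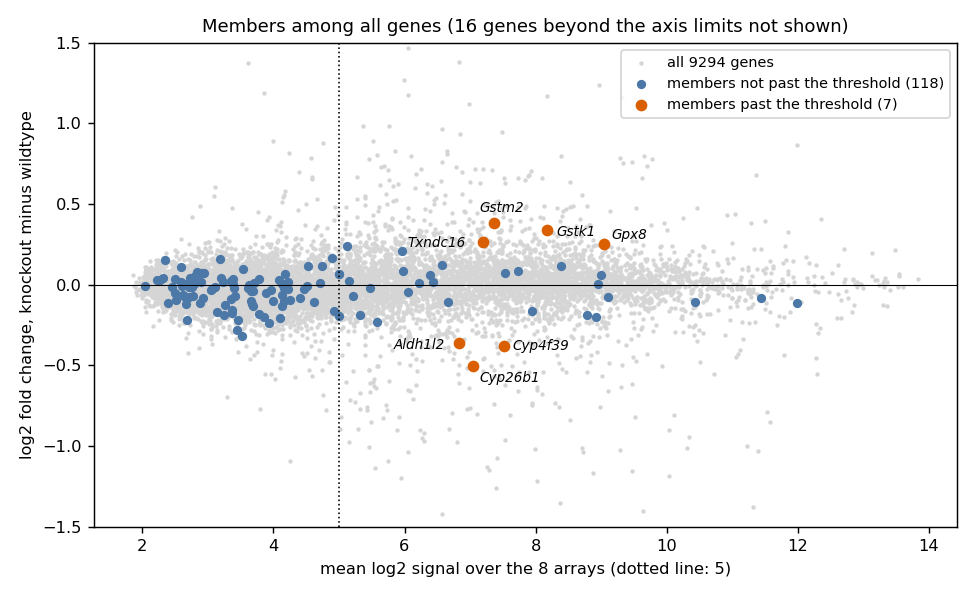
Mean log2 signal over the 8 arrays (horizontal axis) against the log2 fold change, knockout minus wildtype (vertical axis), for all 9294 genes in grey, the 118 members that did not pass in blue and the 7 that passed in orange, with a dotted line at a signal of 5 and 16 genes beyond the axis limits. The orange members lie to the right of the dotted line, and most blue members lie to its left.

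Cyp26b1, which hydroxylates retinoic acid and so removes it, fell the most. Its log2 signals were 7.22, 7.17, 7.20 and 7.56 in wildtype arrays 1 to 4 and 6.73, 6.81, 6.95 and 6.66 in knockout arrays 1 to 4. All knockout values lay below all wildtype values, and wildtype array 4 stood above the other wildtype arrays. The log2 fold change was -0.50 ± 0.09 (SE, n = 4 per group; limma adjusted p = 0.00598), a signal 1.42-fold lower, and it was -0.41 without wildtype array 4. Its relative Cyp26a1, with the same activity, had low signals of 3.88 ± 0.12 in wildtype and 3.69 ± 0.23 in knockout arrays (SD, n = 4 per group; limma adjusted p = 0.381). Those signals lay below the array medians, where background cannot be told apart. Cyp26b1 minus Cyp26a1 within each array fell by 0.32 on the log2 scale, and the genotypes overlapped. This pair was chosen after the values were seen and is given without a test.

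Cyp4f39, the mouse fatty acid omega-hydroxylase of the acylceramide pathway of the skin barrier, was lower as well. It gave 7.56, 7.76, 7.81 and 7.67 in the wildtype arrays and 7.12, 7.42, 7.36 and 7.39 in the knockout arrays. The groups did not overlap, and knockout array 1 was the lowest of all. The log2 fold change was -0.38 ± 0.08 (SE, n = 4 per group; limma adjusted p = 0.0112), or 1.3-fold. Among the 4 Cyp4f genes that lie close together in the gene order and were measured, the other 3 did not pass. Cyp4f13 had 0.09, Cyp4f14 0.04 and Cyp4f15 -0.07 as log2 fold changes. The means of Cyp4f14 and Cyp4f15, 3.19 and 3.41, lay below the array medians, where background cannot be told apart. Cyp4f39 minus Cyp4f13 within each array fell by 0.47 on the log2 scale with no overlap, a comparison chosen after the values were seen and given without a test.

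Aldh1l2 encodes the mitochondrial 10-formyltetrahydrofolate dehydrogenase, an enzyme of one-carbon metabolism that forms NADPH. Its signals were 7.02, 6.90, 7.08 and 7.06 in wildtype and 6.61, 6.63, 6.72 and 6.64 in knockout arrays. The groups were well apart, with little spread among the knockout arrays. The log2 fold change was -0.36 ± 0.06 (SE, n = 4 per group; limma adjusted p = 0.00188), or 1.29-fold lower. It was the only one of 12 aldehyde dehydrogenases measured that passed. That share, 8.33%, was close to the 8.90% of all genes, and 6 of the 12 had means below the array medians.

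Markers of other cells in the cultures moved with the genotype too. Of 8 fibroblast markers, 6 fell, Postn rose and Fap, at a mean below the lower quartiles of the arrays, did not pass. The log2 of their summed signal was 9.90 to 10.02 in wildtype and 9.30 to 9.49 in knockout arrays. Twist2, Dcn and Dpt had log2 fold changes of -1.02, -0.97 and -0.85, and Postn of 1.47. Of 3 melanocyte markers, Pmel fell by 0.28, and the summed level was 11.46 to 11.53 in wildtype and 11.09 to 11.39 in knockout arrays. Of 10 leukocyte markers, Tyrobp fell by 0.25, and 6 were below the array medians, Tyrobp among them. Tyrobp no longer passed when any array but wildtype array 4 was left out. Its call was also lost with quantile normalization repeated, with arrays centred and with a trended, robust variance model. The summed levels of the 10 were 8.10 to 8.27 in wildtype and 8.00 to 8.08 in knockout arrays. None of 7 endothelial and 3 sebocyte or adipocyte markers passed in limma, and unadjusted p-values were under 0.05 for 1 and 0 of them. Cyp26b1, Cyp4f39 and Aldh1l2 fell, and the 4 members described next rose, between the same arrays as these markers, and the part of other cells in their values was not tested. In such bulk samples, fewer cells of a type and less RNA per cell cannot be told apart.

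Gstm2, a cytosolic glutathione transferase of the mu class, had the smallest adjusted p of the members. Wildtype arrays gave 7.17, 7.15, 7.20 and 7.14, and knockout arrays gave 7.62, 7.59, 7.48 and 7.52. Each genotype was tight and the lowest knockout value lay above the highest wildtype value. The log2 fold change was 0.38 ± 0.05 (SE, n = 4 per group; limma adjusted p = 0.000606), or 1.31-fold higher. The measured genes of the mu cluster did not all rise: Gstm5 had a log2 fold change of 0.12 (adjusted p = 0.262), Gstm4 of 0.06 (adjusted p = 0.576) and the dim Gstm6 of -0.06 (adjusted p = 0.77) in limma. Within arrays, Gstm2 rose relative to Gstm4 by 0.33 and relative to Gstm5 by 0.27 on the log2 scale, with no overlap between genotypes in either. These pairs were also chosen after the values were seen. Mu class genes have similar sequences, and how far their probe sets share targets was not tested.

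Gstk1 encodes the kappa class transferase, found in mitochondria and peroxisomes. It gave 8.03, 8.01, 8.06 and 7.93 in wildtype and 8.39, 8.36, 8.44 and 8.20 in knockout arrays. Array 4 was the lowest of both genotypes, yet the groups did not overlap. The log2 fold change was 0.34 ± 0.06 (SE, n = 4 per group; limma adjusted p = 0.00583), or 1.26-fold higher.

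Gpx8 and Txndc16, which both code for proteins of the endoplasmic reticulum, rose slightly. Gpx8, a membrane-bound peroxidase, gave 8.93, 8.94, 8.99 and 8.84 in wildtype and 9.17, 9.21, 9.22 and 9.10 in knockout arrays, with a log2 fold change of 0.25 ± 0.05 (SE, n = 4 per group; limma adjusted p = 0.0149). The groups of Gpx8 did not overlap. Its closest relative of the same compartment, Gpx7, had 6.72 ± 0.06 and 6.61 ± 0.12 (SD, n = 4 per group; limma adjusted p = 0.433). Txndc16, with a thioredoxin-like domain, gave 7.21, 6.96, 7.05 and 7.03 in wildtype and 7.39, 7.31, 7.40 and 7.21 in knockout arrays. Here the groups nearly touched: wildtype array 1 and knockout array 4 both lay at 7.21 after rounding. The log2 fold change of Txndc16 was 0.27 ± 0.07 (SE, n = 4 per group; limma adjusted p = 0.0314). It no longer passed without wildtype array 2, 3 or 4 or knockout array 1, 2 or 3 (adjusted p up to 0.0895).

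**Figure D3:**
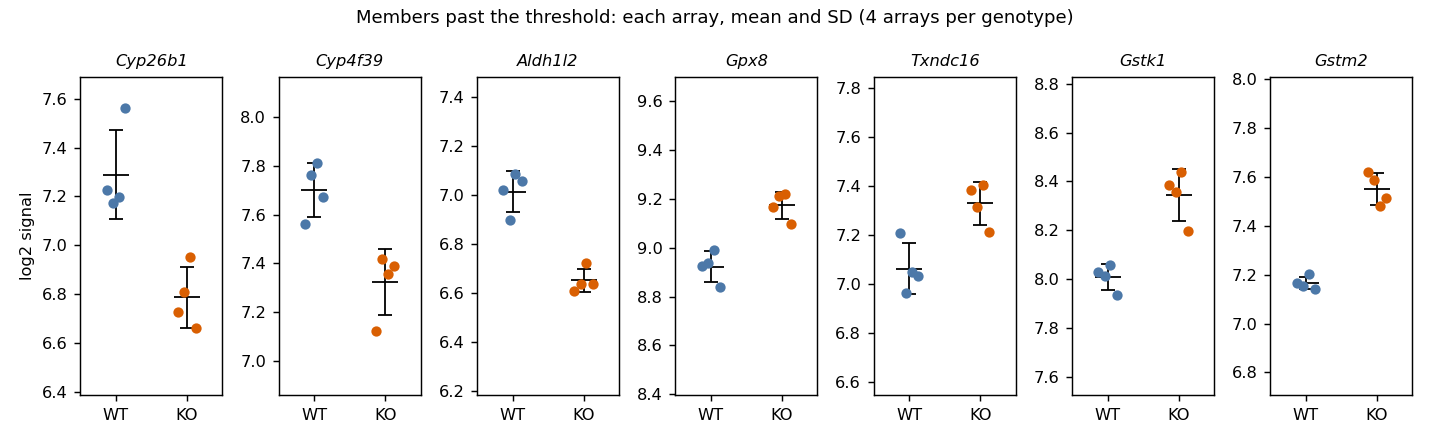
Log2 signal (vertical axis, each panel drawn over the same span around its own centre) of the 7 members that passed, with 1 point per array and the mean and SD of the 4 wildtype (WT, blue) and 4 Nfkbiz KO (KO, orange) arrays. In every panel the points of the genotypes do not overlap, with the narrowest gap in Txndc16.

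Promoter windows, 250 bases before to 50 after the gene start, were found for 6 of the 7 genes in the RefSeq annotation of build GRCm38.p6, the exception being Aldh1l2. The 4 shown are those with the largest fold change, so that a reader can see which short motifs of regulators of these families they hold. Capitals mark matches on either strand to TGACNNNGC, the core of the antioxidant response element bound by NRF2, to GCGTG, the core bound by the aryl hydrocarbon receptor, to GGGA and CC with any 4 bases between them, a form of the NF-kB site, or to TGANTCA, the AP-1 site. The windows were chr6:84593761-84594060 on the minus strand for Cyp26b1, chr17:32452473-32452772 on the plus strand for Cyp4f39, chr3:107986371-107986670 on the minus strand for Gstm2 and chr6:42245685-42245984 on the plus strand for Gstk1, each written 5′ to 3′ in the direction of the gene.
Cyp26b1: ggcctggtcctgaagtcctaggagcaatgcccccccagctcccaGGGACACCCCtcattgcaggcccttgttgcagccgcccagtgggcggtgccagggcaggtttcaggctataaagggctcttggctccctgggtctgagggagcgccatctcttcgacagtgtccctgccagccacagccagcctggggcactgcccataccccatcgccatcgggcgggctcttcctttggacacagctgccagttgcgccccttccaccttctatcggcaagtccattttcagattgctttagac
Cyp4f39: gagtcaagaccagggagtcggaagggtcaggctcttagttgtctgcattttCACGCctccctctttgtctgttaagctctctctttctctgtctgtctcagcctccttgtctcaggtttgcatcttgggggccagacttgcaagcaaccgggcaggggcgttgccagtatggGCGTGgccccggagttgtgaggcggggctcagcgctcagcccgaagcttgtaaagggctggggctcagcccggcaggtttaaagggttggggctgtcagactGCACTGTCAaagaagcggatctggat
Gstm2: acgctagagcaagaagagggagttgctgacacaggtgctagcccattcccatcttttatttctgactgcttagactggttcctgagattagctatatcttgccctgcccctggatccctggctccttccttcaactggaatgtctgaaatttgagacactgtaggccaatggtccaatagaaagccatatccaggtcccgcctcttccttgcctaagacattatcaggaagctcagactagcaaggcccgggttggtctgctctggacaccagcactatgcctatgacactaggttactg
Gstk1: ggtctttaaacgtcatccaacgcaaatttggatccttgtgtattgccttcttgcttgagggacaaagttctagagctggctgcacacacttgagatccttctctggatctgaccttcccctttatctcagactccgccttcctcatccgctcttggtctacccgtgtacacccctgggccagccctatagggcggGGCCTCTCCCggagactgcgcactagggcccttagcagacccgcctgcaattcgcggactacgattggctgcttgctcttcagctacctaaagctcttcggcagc
Cyp26b1 and Gstk1 each held 1 match to the NF-kB form, GGGACACCCC in Cyp26b1 and, on the opposite strand, GGCCTCTCCC in Gstk1, and these 2 genes changed in opposite directions. Cyp4f39 held 2 matches to the aryl hydrocarbon receptor core, and 1 to the antioxidant core, on the opposite strand, after the gene start. The Gstm2 window held none of the motifs. Across all 32851 windows, 12.4% held the antioxidant core, 32.4% the aryl hydrocarbon receptor core, 20.7% the NF-kB form and 7.81% the AP-1 form. Among 122 windows of 104 members, the shares were 7.38%, 23.0%, 17.2% and 11.5%. A match is a string of letters and was not tested for binding.

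Of the 14 glutathione transferases, which attach glutathione to reactive compounds, 2 rose, none fell and 12 did not pass, with a median log2 fold change of 0.03. Gstp1, the pi class enzyme, had a strong signal in both genotypes, 11.48 ± 0.04 and 11.40 ± 0.06 (SD, n = 4 per group; limma adjusted p = 0.43). Its 95% interval ran from -0.19 to 0.03. Gsta4, which conjugates the lipid peroxidation product 4-hydroxynonenal, had 9.02 ± 0.17 and 8.82 ± 0.16 (adjusted p = 0.276), and its groups overlapped. Gsta2 had a log2 fold change of -0.32 ± 0.15 (SE), which was -0.15 without knockout array 1, at signals of 2.88 to 3.84 where background cannot be told apart. Gstz1 gave 6.57, 6.51, 6.53 and 6.41 in wildtype and 6.69, 6.62, 6.63 and 6.57 in knockout arrays, a difference of 0.12 with an adjusted p of 0.225 in limma. Its groups did not overlap. Gstz1 was named after its values were seen.

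Among the peroxide-removing genes, Gpx8 was the only one of the 6 glutathione peroxidases taken to pass (16.7%, beside 8.90% of all genes). The median of these 6 was -0.09. Gpx2, which the choice left out, is not covered by these counts. Gpx1, the cytosolic selenoenzyme, gave 12.10, 12.02, 12.08 and 12.00 in wildtype and 11.95, 11.90, 11.98 and 11.89 in knockout arrays. Although these groups did not overlap, the difference was only -0.12 ± 0.05 (SE, n = 4 per group; limma adjusted p = 0.214). It was -0.07 with quantile normalization repeated, and it passed with the trended, robust variance model (limma adjusted p = 0.00794). The only peroxiredoxin in the table, the mitochondrial Prdx3, had 9.15 ± 0.08 and 9.07 ± 0.03 (SD, n = 4 per group; limma adjusted p = 0.491). In the thioredoxin group, 1 of 6 rose (16.7%, beside 8.90% of all genes that passed) and 5 did not pass. Its brightest probe sets, Txndc15 and Txndc12, had log2 fold changes of 0.06 ± 0.05 and 0.08 ± 0.05 (SE), with adjusted p of 0.584 and 0.418 in limma. The symbols of classic thioredoxin and thioredoxin reductase were not among the genes tested here.

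The aldehyde, alcohol and carbonyl enzymes showed little difference beside Aldh1l2. Of 12 aldehyde dehydrogenases, 1 fell (8.33%, beside 8.90% of all genes that passed) and 11 did not pass (median log2 fold change 0.00). Aldh3a2, the fatty aldehyde dehydrogenase, gave 7.40 to 7.58 in wildtype and 7.48 to 7.63 in knockout arrays, overlapping ranges. Aldh3b2, which acts on lipid aldehydes, was at 8.02 ± 0.05 and 7.86 ± 0.11 (SD, n = 4 per group; limma adjusted p = 0.163). Aldh6a1, of valine breakdown, came closest to the threshold from above, with 5.86 ± 0.06 and 6.07 ± 0.09, groups that did not overlap, and a limma adjusted p of 0.0524. None of 8 aldo-keto reductases and none of 5 alcohol dehydrogenases passed in limma, and unadjusted p-values were under 0.05 for 0 and 2 of them. Akr1b8, an aldose reductase relative, had 8.95 ± 0.03 and 8.96 ± 0.04, with a 95% interval of the difference from -0.10 to 0.11. Akr1c18, a steroid-reducing enzyme, varied more between arrays of 1 genotype, from 8.64 to 9.06 in wildtype and 8.37 to 8.90 in knockout arrays, with a 95% interval from -0.47 to 0.10. Adh6b, which did not pass, had a log2 fold change of 0.24 ± 0.08 (SE; limma adjusted p = 0.091) with 4.87 to 5.08 in wildtype and 5.05 to 5.41 in knockout arrays, and Adh1 lay at 4.20 and 4.07, below the array medians.

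Of the 54 cytochromes P450, 2 fell and none rose, while 52 did not pass. The share that passed was 3.70%, beside 8.90% of all genes, and 41 of the 54 had means below the array medians. The median log2 fold change over the family was -0.03. The largest changes among those that did not pass were in Cyp2d9 with -0.24, Cyp3a13 with -0.23, Cyp2d34 and Cyp3a16 with -0.22, Cyp17a1 with -0.21 and Cyp2b9 with -0.20, all of them toward lower values. Of these, Cyp3a13 was above the array medians, at 5.70 ± 0.09 and 5.47 ± 0.10 (SD, n = 4 per group; limma adjusted p = 0.0598). The means of the others were 4.21 or less in both genotypes. Cyp1a1, a standard target of the aryl hydrocarbon receptor, had 4.22 ± 0.20 and 4.24 ± 0.10 and a 95% interval from -0.19 to 0.23. Cyp2b19, a P450 of differentiated keratinocytes, had 4.81 ± 0.18 and 4.98 ± 0.32 with overlapping groups (adjusted p = 0.584). Both were named after their values were seen.

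None of 8 UDP-glucuronosyltransferases and none of 11 sulfotransferases passed in limma, and unadjusted p-values were under 0.05 for 1 and 2 of them. Sult2b1, the cholesterol sulfotransferase of the epidermis, was the sulfotransferase with a clear signal. It gave 10.36, 10.52, 10.57 and 10.49 in wildtype and 10.27, 10.38, 10.43 and 10.43 in knockout arrays. The groups overlapped, and the log2 fold change was -0.11 ± 0.06 (SE, n = 4 per group; limma adjusted p = 0.37). Its 95% interval ran from -0.25 to 0.03. Ugt2b38, with the brightest probe set among the glucuronosyltransferases, had only 3.59 ± 0.19 and 3.31 ± 0.09 (SD, n = 4 per group; limma adjusted p = 0.0845). Its groups did not overlap, but both lay near the lower quartiles of the arrays. The remaining named ones, Ugt3a2 and Sult5a1, had log2 fold changes of 0.04 and -0.02.

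In all, the genotypes did not overlap for 15 of the 125 members (12%), 6 higher and 9 lower, beside 15.9% of all genes tested. Many members lie in tandem clusters: 69 of the 123 members placed in the gene order of GRCm38.p6 lay in 13 groups of at least 3, each within 10 genes of the next. Of the 7 members that passed, Gstm2 and Cyp4f39 lay in such groups, and no group held more than 1 of them.

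Related genes outside the 10 families were described from 6 lists, which held 53 measured genes, of which 13 passed, beside 8.90% of all genes tested and 16.0% of those with a mean of at least 5. The lists were drawn up with earlier results known, so their counts are descriptions. Measured were 9 of 32 symbols of the NRF2-linked list, 9 of 18 oxidant-producing and 10 of 22 retinoid ones. In the other lists, 7 of 19 glutathione handling, 13 of 27 carbonyl and steroid and 5 of 15 aryl hydrocarbon receptor symbols were measured. The remaining symbols were not among the genes tested, so the counts do not cover whole pathways. Of 9 oxidant-producing enzymes measured, 5 fell, none rose and 4 did not pass (Mpo, Ncf4, Nos2 and Duoxa2), their median log2 fold change being -0.21, beside -0.01 over all genes. Noxo1, an organiser of NADPH oxidase, gave 6.54, 6.35, 6.48 and 6.54 in wildtype and 5.74, 5.83, 5.83 and 5.67 in knockout arrays (log2 fold change -0.71 ± 0.06, SE, n = 4 per group; limma adjusted p = 3e-05). Xdh, the xanthine oxidoreductase gene, fell by 0.46 ± 0.07, and Cyba, the p22phox subunit of NADPH oxidases, by 0.36 ± 0.07. Duox1, a dual oxidase that makes hydrogen peroxide, and Duoxa1, its maturation factor, fell by 0.25 ± 0.07 and 0.21 ± 0.06. Duoxa1 was chosen with its values in view. Both were close to the threshold (adjusted p = 0.0486 and 0.0488 in limma). Duox1 no longer passed when any array but wildtype array 1 was left out, Duoxa1 when any array was, and both with arrays centred on their medians. The call of Duoxa1 was also lost with the replicate number as a block. The list had 3 genes that passed with centred arrays and 3 to 4 with 1 array left out. These genes fell between the same arrays in which 6 of 8 fibroblast markers fell and Postn rose. The leukocyte marker Tyrobp, below the array medians, fell there too, and 9 other leukocyte markers did not pass. The part of other cells in the values of the oxidant-producing genes was not tested.

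The retinoid list held genes that moved both ways. Of 10 measured, 2 rose, 2 fell and 6 did not pass, with a median of 0.05. Crabp1, which binds retinoic acid in the cytoplasm, gave 10.76, 10.77, 10.93 and 10.79 in wildtype and 9.73, 9.82, 9.97 and 9.69 in knockout arrays. That is a log2 fold change of -1.01 ± 0.07 (SE, n = 4 per group; limma adjusted p = 4.84e-06), larger than that of any of the 125 members, between the same arrays in which the fibroblast markers differed. Rarb, a retinoic acid receptor, rose by 0.74 ± 0.10 (SE; limma adjusted p = 0.000551), from 5.26 to 5.41 in wildtype to 5.89 to 6.38 in knockout arrays. Crabp2, a second binding protein, fell by 0.23 ± 0.07, and Dhrs3, a retinal reductase, rose by 0.23 ± 0.06. The call of Crabp2 was lost without wildtype array 1, 2 or 3 or knockout array 1, 3 or 4. It was also lost with arrays centred or quantile normalized again and with the replicate number as a block. Dhrs3 no longer passed with that block or when any array but wildtype array 3 was left out.

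Of the 9 NRF2-linked antioxidant genes measured, 1 was higher, 1 was lower and 7 did not pass, with a median of -0.07. Mt2, a metallothionein, rose by 0.26 ± 0.05 (SE), and Blvrb, a biliverdin reductase, fell by 0.27 ± 0.07, a call lost without wildtype array 1, 3 or 4 or knockout array 2 or 4 or with arrays centred. The standard NRF2 targets Nqo1 and Hmox1, named after their values were seen, had log2 fold changes of 0.12 and 0.01 with limma adjusted p of 0.526 and 0.976. Of 7 further genes of glutathione handling, Chac1, which breaks glutathione down, fell by 0.34 ± 0.06 and 6 did not pass. Of 13 carbonyl and steroid enzymes, the carbonyl reductase gene Dcxr fell by 0.32 ± 0.05 (SE; limma adjusted p = 0.00292) and 12 did not pass. In the list of the aryl hydrocarbon receptor and P450 partners, none of 5 passed in limma, 0 had an unadjusted p under 0.05, and the median was -0.04.

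**Figure D4:**
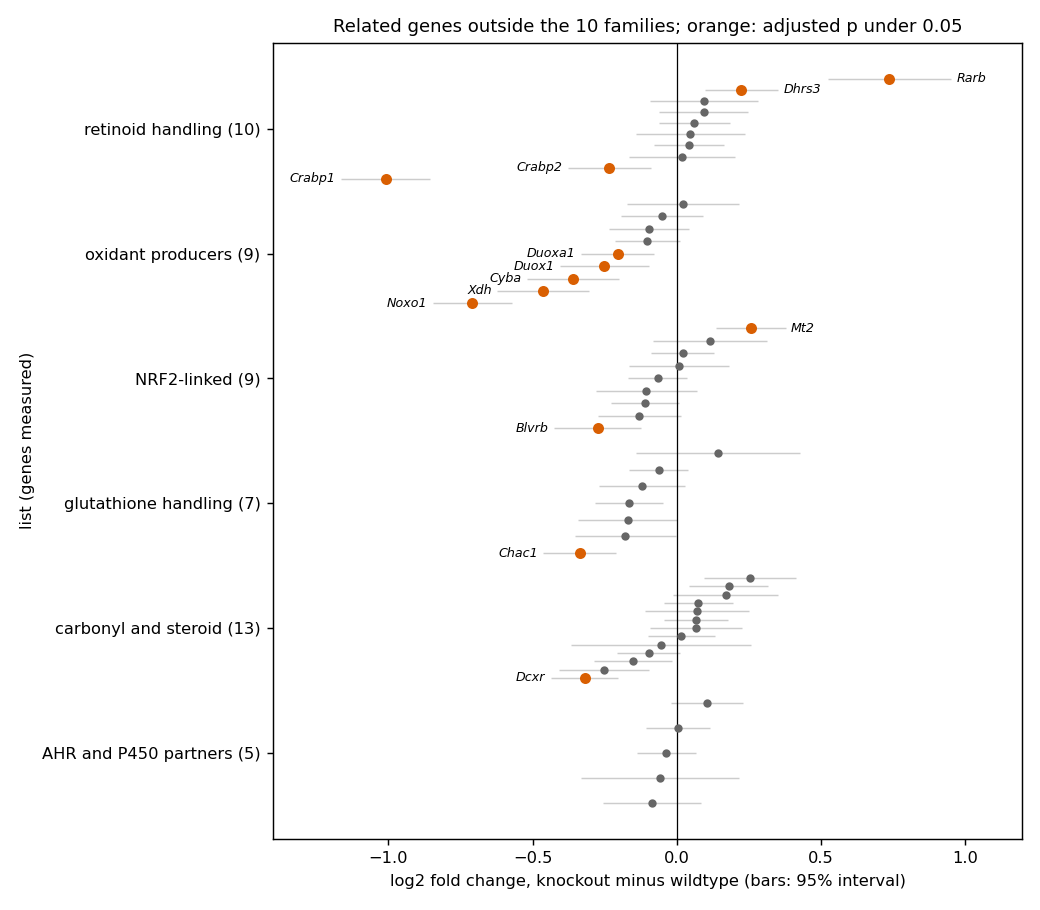
Log2 fold changes (knockout minus wildtype, horizontal axis) of the 53 measured genes in 6 lists of related genes, with 95% intervals as bars and genes with an adjusted p under 0.05 in orange. The oxidant producers in orange all lie left of 0, while the retinoid list spans -1.01 for Crabp1 to 0.74 for Rarb.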

How the data were processed

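Total RNA from the 8 keratinocyte cultures was labelled with biotin and hybridised to arrays, per the labels' protocols. The authors deposited 1 normalized value per probe set and array, on the log2 scale as judged from the values (1.57 to 13.9). For their background correction and normalization, the method is not given in the sources read here.

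Of 11373 probe sets, 9374 had 1 gene symbol in the platform annotation, 479 several and 1520 none. For each of 9294 genes the probe set with the highest mean over the 8 arrays was kept. Genotypes were compared, 4 arrays against 4, in R 4.3.3 with limma 3.58.1 (lmFit, then eBayes) and Benjamini-Hochberg adjustment over all genes and a threshold of 0.05. The median SE was 0.0693, and precision is limited by the number of arrays. The procedure was tested on simulated data.

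Named were all members that passed, the 2 brightest of each family, the 10 with the largest change that did not pass, members not passing without overlap and a change of at least 0.25, and up to 4 genes that passed in each list. Close relatives of members that passed were added after the values were seen. The members and lists were chosen with earlier results of these data known. Alternatives covered normalization, centring, filters, probe set choice, the variance model, the replicate block and leaving out each array.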

Additional observations from a re-analysis of the deposited data

Results flagged for a closer look

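Of 62 groups of 4 arrays examined for 31 named members, 3 held an array far from the other 3 by Dixon's criterion, which chance gives in about 1 in 20 groups. In wildtype arrays, Adh1 was at 4.31 in array 1 and 4.16 in the other 3 arrays, a gap of 0.976 of the range. Cyp26b1 was at 7.56 in wildtype array 4 and 7.17 to 7.22 in the others, a gap of 0.867 of the range. In knockout arrays, Cyp2b9 was at 3.96 in array 3 and 3.66 to 3.70 in the others, a gap of 0.856 of the range.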

How the results depend on the processing

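The 7 members passed under each alternative that kept all 8 arrays. In all, 8 members (6.40%) passed with quantile normalization repeated or with arrays centred on their medians (Aldh6a1 added). Over all genes, 8.94% and 8.56% did. With the lowest 25% of genes left out, 9 of 73 members passed (12.3%), beside 13.6% of all genes kept. Without genes under a mean of 5, 10 of 34 members passed (29.4%), beside 23.9% of all genes kept. With a trended, robust variance model, 8 members passed (6.40%, Gpx1 added), beside 12.2% of all genes. With 1 array left out, 6 to 9 members passed, 3 to 4 higher and 3 to 5 lower, the 5 being without wildtype array 1 (Adh6a and Ugt2b38 added) or 4 (Cyp3a13 and Gstt1 added). Over all genes, 598 to 687 then passed. The related lists, whose alternatives were chosen after seeing the data, had 9 to 17 genes that passed. Members near 0 changed sign: Sult5a1 was 0.00826 with quantile normalization and 0.00925 with centring, and -0.0869 to 0.0469 with 1 array left out, where Akr1b8 ranged from -0.00726 to 0.0258 and Ugt3a2 from -0.0240 to 0.121. The cause was not tested. With the replicate number as a block, 7 members and 659 genes passed. Same-numbered arrays did not deviate together (correlations of -0.05 to 0.09, 1 of 4 matching its own number best). This check found no shared deviation, and it cannot exclude that same-numbered samples were paired. Low signal over background limits the members below the array medians.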
